A study of Mus musculus with 20 samples.

Results

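Large cDNA collections of mouse tissues gave many transcripts a clone number in place of a gene name, and the genes that still carry such a number have symbols ending in Rik, for the RIKEN institute. The genes described here are the abundant ones among them in the testis, selected on their control signals: those with a mean signal of 500 or more over the 4 control arrays, read on the probe set of highest mean among those assigned to that gene alone. Of 1294 RIKEN genes with such a probe set, 158 met the rule, out of 18193 genes of any name. The genes 1700104B16Rik, 1700063D05Rik, 2010109A12Rik and 1700084F23Rik were left out by the rule, and of these only 1700104B16Rik would have reached the level. Since members were chosen by control signals, their control levels are given as a description without a test.

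Testes of C57BL/6 and AKR/N, both inbred strains, were taken at 8 weeks of age and profiled whole on Affymetrix Mouse Genome 430 2.0 arrays. Each strain had an unheated control group and groups sampled 8, 10, 12 and 24 h after heat shock of 43 °C for 15 min, with 2 arrays in each of the 10 groups. Whether the replicates are different mice is not stated, so every p-value reflects the spread of arrays alone, and that spread may be technical. Controls were given no time of their own, and heat cannot be told apart from time of sampling in comparisons with them. In whole testis, fewer cells of a type and less RNA per cell cannot be told apart.

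Spermatogenesis carries germ cells from dividing spermatogonia through meiosis to round and elongating spermatids. Meiotic and haploid germ cells transcribe an unusually large share of the genome, including many long non-coding RNAs (lncRNAs) and genes with little expression elsewhere. Testes are held below body temperature, and spermatocytes and early spermatids are known to be sensitive to brief heating.

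The labels were checked on genes outside the set. The heat-shock gene Hspa1b, which encodes an inducible HSP70 chaperone, was higher at 8 h than in controls by 6.40 on the log2 scale in C57BL/6 and by 4.77 in AKR/N. One control array of AKR/N, replicate 2, had an Hspa1b signal of 493 against 64.7 on replicate 1, so AKR/N counts are also given without it. The protamine gene Prm1 and the spermatocyte and spermatid enzyme gene Ldhc had signals between 8552 and 11483 on all arrays, and 4 epididymal markers stayed at or below 71.2. The ratio of the 3′ to the 5′ actin control probe sets, a sign of RNA quality, lay between 1.87 and 3.57, with the highest on C57BL/6 12 h replicate 2. That array also had an Hspa1b signal of 6071, against 2259 on its replicate.

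Most members had clone numbers from testis libraries. Symbols beginning with 1700 or 49 made up 126 of the 158 (79.7%), against 434 of 861 tested RIKEN genes below 500 in controls (50.4%). RefSeq classed 100 members as protein-coding, 48 as lncRNA, 6 as transcribed pseudogenes and 1 as a non-coding pseudogene, and held no entry for the other 3. The lncRNA share was 30.4% in the members, 64.3% in the tested RIKEN genes below 500 and 6.17% in all 15762 genes tested. The mean control signal ran from 502 to 6994 with a median of 1132, and 69 members lay below 1000. All 4 control arrays reached 500 for 137 members, and all 20 arrays did so for 97. Just inside the limit stood 1700030J22Rik (502), 4930550C14Rik (506) and 1810055G02Rik (506), and just outside 2410006H16Rik (493), 4932702P03Rik (494) and 2700049A03Rik (496).

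The highest control means belonged to a set of mixed kinds. They were those of the pseudogene 1700019M22Rik (6994), the transcribed pseudogene 1700123L14Rik (6453), the protein-coding 1700074P13Rik (6165), the transcribed pseudogene 1700018B24Rik (5908) and the protein-coding 1700019D03Rik (5365). RefSeq lists smAKAP, the name of a small anchoring protein for protein kinase A, as a synonym of 1700019D03Rik, and Nup50, a nuclear pore gene, as a synonym of 1700123L14Rik. A probe set of a pseudogene can also read a near-identical parent transcript, so values of these pseudogenes are uncertain in origin. Among these abundant RNAs 1700018B24Rik moved most: its C57BL/6 signals were 5462 and 5727 in controls and 2263 and 2268 at 24 h. In AKR/N its signals were 6077 and 6367 in controls and 4269 and 3617 at 24 h, lower on both heated arrays than on both controls as in C57BL/6.

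At 24 h in C57BL/6 more members were called lower than higher. Changes were tested with limma on log2(signal + 16) across all 15762 genes, and a gene is called when its Benjamini-Hochberg adjusted p is under 0.05. In C57BL/6, 84 of 158 members were called at 24 h against control (53.2%), 57 lower and 27 higher. The shares called were 38.0% of all genes and 56.4% of the 2452 genes of other names with control signals of 500 or more, so the share called among members was close to that of other abundant genes. By direction, 16.6% of all genes were lower and 21.4% higher, and 35.6% and 20.8% of other abundant genes, against 36.1% and 17.1% of members. Centring each array on its median gave 60 lower and 9 higher, and quantile normalization 54 lower and 35 higher. The median change of all genes was 0.08 as deposited and -0.05 after median centring.

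The largest fall was that of 1700029P11Rik, a protein-coding gene on chromosome 15. Its C57BL/6 signals were 1216 and 1334 in controls, 1099 and 1184 at 8 h, 668 and 646 at 10 h, 618 and 476 at 12 h, and 264 and 276 at 24 h. From 10 h on, every heated array lay below both controls, and the arrays of 24 h lay below all others. The change at 24 h was -2.17 ± 0.15 (log2, SE; 2 arrays a group; limma adjusted p = 1.79e-06).

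The lncRNA 1700026J12Rik followed the same order of groups. Its signals were 722 and 800 in C57BL/6 controls, 763 and 737 at 8 h, 427 and 395 at 10 h, 348 and 286 at 12 h, and 202 and 187 at 24 h. The 8 h arrays lay within the range of the controls, and the groups from 10 h on did not overlap with them or with each other. The change at 24 h was -1.88 ± 0.13 (SE; limma adjusted p = 1.79e-06).

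The lncRNA 4921525O09Rik was already below both controls at 8 h, with signals of 537 and 533 in C57BL/6 controls, 358 and 410 at 8 h, 284 and 199 at 10 h, 213 and 166 at 12 h, and 97.5 and 128 at 24 h. Its change at 24 h was -2.11 ± 0.22 (SE; limma adjusted p = 1.47e-05). This probe set may share probes with other transcripts, as its suffix marks, and another probe set of the gene changed by -1.69. The lncRNA 4931408D14Rik had signals of 943 and 606 in controls, 195 and 182 at 12 h and 191 and 147 at 24 h, and its groups at 12 and 24 h overlapped. Its change was -1.92 ± 0.26 at 12 h and -2.07 ± 0.26 at 24 h.

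Protein-coding members also fell by large amounts. For 1700006A11Rik the C57BL/6 signals were 655 and 633 in controls and 143 and 181 at 24 h, a change of -1.90 ± 0.22. For 1700018F24Rik they were 1219 and 1383 in controls, 1304 and 1304 at 8 h and 326 and 364 at 24 h, a change of -1.87 ± 0.24. Heated and control arrays of both genes were well apart at 24 h, and the limma adjusted p was 2.97e-05 and 6.39e-05.

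The rises were smaller, and the 6 largest were in 5 protein-coding genes and a transcribed pseudogene. The protein-coding 4921507P07Rik, for which RefSeq lists the synonym TISP74, had C57BL/6 signals of 1137 and 1233 in controls, 1323 and 1541 at 8 h, 1877 and 1847 at 10 h, 2249 and 1729 at 12 h, and 2414 and 2477 at 24 h. Every heated array was above both controls, with the highest signals at 24 h. The change at 24 h was 1.04 ± 0.15 (SE; limma adjusted p = 0.00012).

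Close in size was 4921539E11Rik, with C57BL/6 signals of 833 and 846 in controls, 892 and 944 at 8 h, 1421 and 1314 at 10 h, 1297 and 1036 at 12 h, and 1692 and 1747 at 24 h. The 12 h arrays were below those of 10 h, so the rise was not steady. The change at 24 h was 1.02 ± 0.14 (limma adjusted p = 8.17e-05). The protein-coding 4930407I10Rik changed from 803 and 875 in controls to 1857 and 1608 at 24 h, by 1.03 ± 0.18. The protein-coding 1700034I23Rik changed from 2088 and 2044 to 3676 and 3813, by 0.85 ± 0.11. The pseudogene 1700022A21Rik (0.78 ± 0.11) and the protein-coding 4930571K23Rik (0.77 ± 0.11) completed the 6 largest, and controls and 24 h arrays did not overlap for any of these genes.

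**Figure D1:**
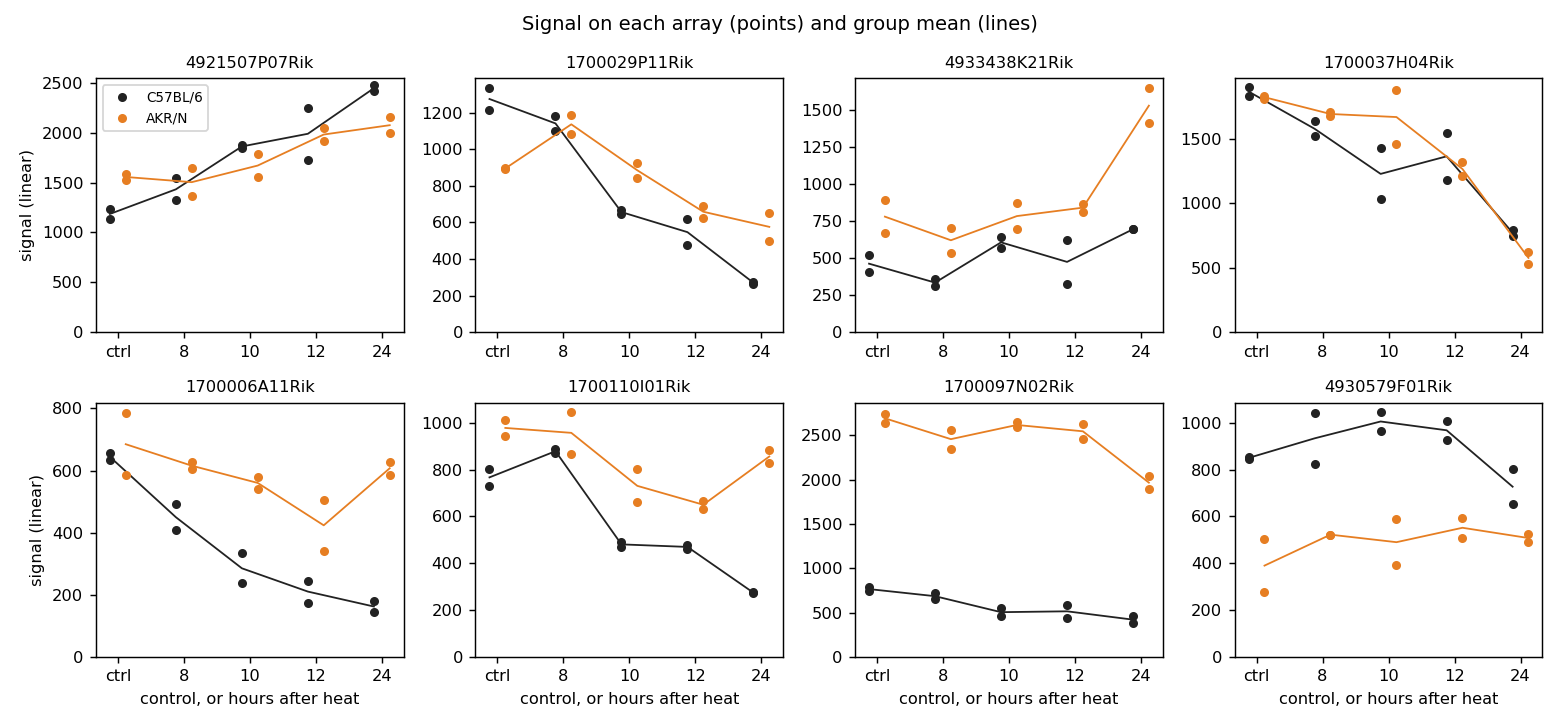
Array signal (linear axis from 0) against group for 8 members, those of largest rise and fall at 24 h in each strain and of largest strain differences, from control through 8, 10, 12 and 24 h after heat shock; points are single arrays, lines join group means, black is C57BL/6 and orange AKR/N. The C57BL/6 signals of 1700029P11Rik go from 1216 and 1334 in controls to 264 and 276 at 24 h, while those of 4921507P07Rik go from 1137 and 1233 to 2414 and 2477.

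Most lncRNA members called at 24 h were lower, whereas protein-coding members were called in both directions. This split was made after seeing the data, and it is described by counts only. In C57BL/6, 26 of 48 lncRNA members were called lower and 4 higher, with a median change of -0.49. Of 100 protein-coding members, 26 were called lower and 21 higher, with a median of 0.10. Median centring gave 28 lncRNAs lower and 1 higher and 27 protein-coding genes lower and 7 higher, and quantile normalization 25 and 6, and 24 and 25. Among genes of other names at 500 or more in controls, 9 of 30 lncRNAs were called lower and 4 higher (median 0.08), and 859 of 2411 protein-coding genes lower and 503 higher (median -0.12). Of the 554 tested RIKEN lncRNAs below 500, 94 were called lower and 35 higher. The lncRNA counts stand beside 16.6% of all genes called lower and 21.4% called higher.

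Lower calls also outnumbered higher ones in both types in AKR/N. At 24 h, 20 of 48 lncRNA members were called lower and 2 higher (median -0.33), and 18 of 100 protein-coding members lower and 7 higher (median -0.05), or 17 and 11 with quantile normalization. Of all genes, 11.1% were called lower and 12.3% higher. Among genes of other names at 500 or more in controls, 9 of 30 lncRNAs were called lower and 1 higher. Of the 2411 protein-coding genes there, 561 were lower (23.3%) and 235 higher (9.75%), so the lean to lower calls was shared by other abundant genes. Single arrays mattered for these AKR/N counts: the lncRNA members called lower numbered 6 without AKR/N 24 h replicate 2, 13 without control replicate 1 and 12 without control replicate 2. The protein-coding members called lower numbered 7 without AKR/N 24 h replicate 2 and 10 without control replicate 2.

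**Figure D2:**
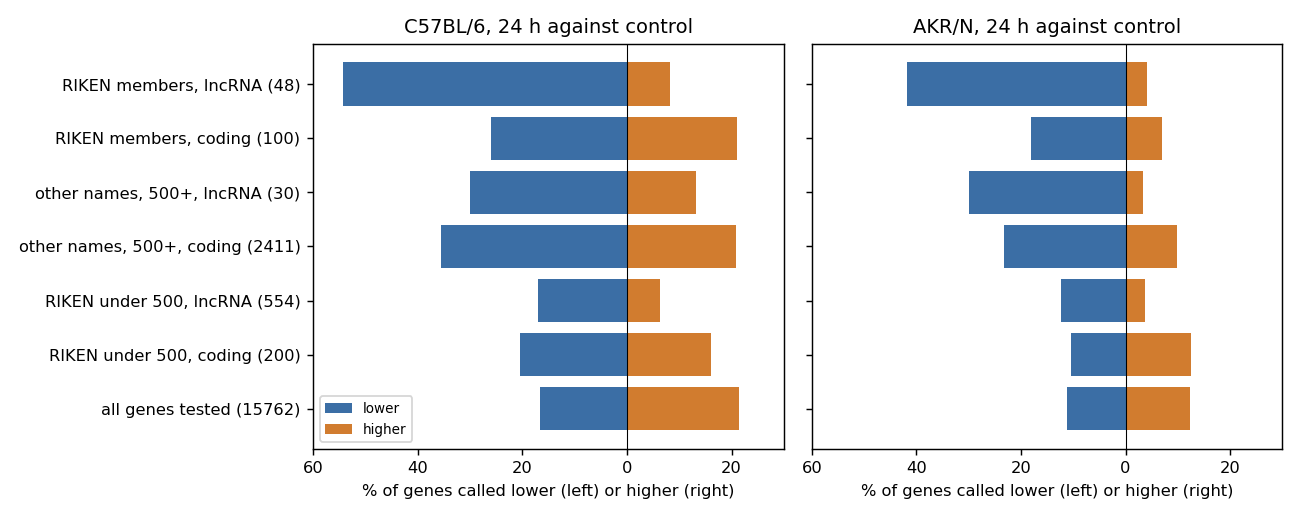
Percent of genes called lower (blue, to the left) or higher (orange, to the right) at 24 h against control, by gene class, for C57BL/6 (left panel) and AKR/N (right panel); numbers in parentheses are genes in the class. The lncRNA members have the longest blue bars, 54.2% in C57BL/6 and 41.7% in AKR/N, and short orange ones, 8.33% and 4.17%.

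Because control signals chose the members, a fall from control is favoured by the choice, and the 24 h arrays were therefore also set against the mean of the heated groups of 8, 10 and 12 h, which uses no control array apart from the shared estimate of spread. In C57BL/6, 63 members were called in this comparison (39.9%), 53 lower and 10 higher, against 28.7% of all genes and 39.5% of other abundant genes. By direction, 12.1% of all genes were lower and 16.6% higher, and 28.4% and 11.1% of other abundant genes. Median centring gave 55 lower and 3 higher. Leaving out C57BL/6 24 h replicate 1 gave 35 calls and leaving out replicate 2 gave 37. Of the 57 members lower at 24 h against control, 52 were also called lower against the earlier heated groups (91.2%), and of the 27 higher, 9 were also called higher (33.3%). The same shares were 65.4% and 64.4% in all genes and 75.5% and 50.1% in other abundant genes, and both comparisons share the 24 h arrays.

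By type, 26 of 48 lncRNA members were called lower against the earlier heated groups and 1 higher, and 23 of 100 protein-coding members lower and 7 higher. Among other abundant genes, 7 of 30 lncRNAs were called lower and 2 higher. Of the 2411 protein-coding genes there, 687 were lower (28.5%) and 269 higher (11.2%). Of the 554 tested RIKEN lncRNAs below 500, 65 were lower (11.7%) and 19 higher (3.43%). Without C57BL/6 24 h replicate 2 the lncRNA members called lower numbered 16, and without replicate 1 the protein-coding ones numbered 13. The largest falls were those of 1700029P11Rik (-1.41 ± 0.12), 1700018F24Rik (-1.37 ± 0.20), 1700102P08Rik (-1.18 ± 0.14) and 1700026J12Rik (-1.18 ± 0.11). The protein-coding 1700102P08Rik had signals of 874 and 1014 at 8 h, 666 and 507 at 10 h, 603 and 460 at 12 h, and 256 and 312 at 24 h. Its 24 h arrays lay below all earlier ones. Limma adjusted p-values of these falls were between 1.85e-05 and 0.00027.

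Of the rises in the heated arrays of C57BL/6, that of 4921539E11Rik (0.59 ± 0.11; limma adjusted p = 0.00154) kept its call whichever array was left out. The lncRNA 4933438K21Rik changed by 0.61 ± 0.20 (adjusted p = 0.0386), from signals between 312 and 645 on the earlier arrays to 695 and 695 at 24 h. It lost its call without C57BL/6 8 h replicate 2 or 10 h replicate 1 (0.58 each) and without either 24 h array (0.61 each), and also with a pseudocount of 1 (0.63). The changes of 4921507P07Rik (0.49 ± 0.12) and 4930407I10Rik (0.48 ± 0.15) were called too, and both lost the call without 24 h replicate 1 (0.51 and 0.38) or replicate 2 (0.47 and 0.59). Median centring also ended the call of 4921507P07Rik, at 0.40.

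At 8 h in C57BL/6 limma called 0 members, against 0.0888% of all genes, all higher, and 0.0816% of other abundant genes, also all higher. An unadjusted limma p under 0.05 was found for 18 of 158 members, 1209 of all 15762 genes and 135 of the 2452 other abundant genes. Both 8 h arrays were above both controls for 76 members (48.1%) and below both for 22 (13.9%), compared with 19.5% and 24.0% of all genes and 30.9% and 16% of other abundant genes. The median change of the members at 8 h was 0.10, and it was 0.15 with median centring and 0.05 with quantile normalization.

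At 10 h, 38 members were called (24.1%), 30 lower and 8 higher, against 11.2% of all genes (5.19% lower, 6.0% higher) and 21.6% of other abundant genes (11.7% lower, 9.95% higher). The count was 19 without C57BL/6 10 h replicate 1, 13 without 10 h replicate 2, 6 without control replicate 1 and 16 without control replicate 2. The largest falls were those of 1700006A11Rik (-1.15 ± 0.22), 4930579G24Rik (-1.12 ± 0.21) and 4921525O09Rik (-1.12 ± 0.22), and the largest rises those of 4930407I10Rik (0.74 ± 0.18), 4921539E11Rik (0.69 ± 0.14) and 4921507P07Rik (0.65 ± 0.15). Each of these 6 lost its call when certain single arrays were left out. Without 10 h replicate 2 the 3 falls were -0.92, -0.94 and -0.88, and without control replicate 1 they were -1.13, -1.05 and -1.11, while 4921525O09Rik also lost it without control replicate 2 (-1.12). The rise of 4921539E11Rik lost its call without 10 h replicate 1 (0.64) or control replicate 1 (0.68). The rises of 4930407I10Rik and 4921507P07Rik lost theirs without any one of the 10 h and control arrays, at 0.68 to 0.80 and 0.59 to 0.70, and the latter also with median centring (0.63).

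The protein-coding 4930579G24Rik, named among these falls, had C57BL/6 signals of 944 and 854 in controls, 564 and 628 at 8 h, 460 and 354 at 10 h, 505 and 337 at 12 h, and 309 and 372 at 24 h. All heated arrays were below both controls, and those of 10, 12 and 24 h overlapped.

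At 12 h, 52 members were called in C57BL/6 (32.9%), 38 lower and 14 higher, against 19.1% of all genes (9.38% lower, 9.71% higher) and 31.2% of other abundant genes (19.6% lower, 11.6% higher). Median centring gave 41 lower and 5 higher. The count was 32 without C57BL/6 12 h replicate 2, the array of highest actin ratio, 29 without control replicate 1 and 27 without control replicate 2. The falls of 4931408D14Rik (-1.92 ± 0.26), 1700006A11Rik (-1.56 ± 0.22) and 4921525O09Rik (-1.43 ± 0.22) and the rises of 1700034I23Rik (0.75 ± 0.11) and 4921507P07Rik (0.73 ± 0.15) kept their calls whichever array was left out. The rise of 4930407I10Rik (0.74 ± 0.18) lost it without 12 h replicate 2 (0.54) or control replicate 1 (0.68). Over the 4 times 86 members were called at least once in C57BL/6 (54.4%), none of them in both directions, against 41.5% of all genes and 58.3% of other abundant genes, of which 0.0444% and 0.0408% were called in both directions. First called at 24 h were 17 members lower (10.8%) and 14 higher (8.86%), against 8.08% and 12.2% of all genes and 15.5% and 8.36% of other abundant genes.

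**Figure D3:**
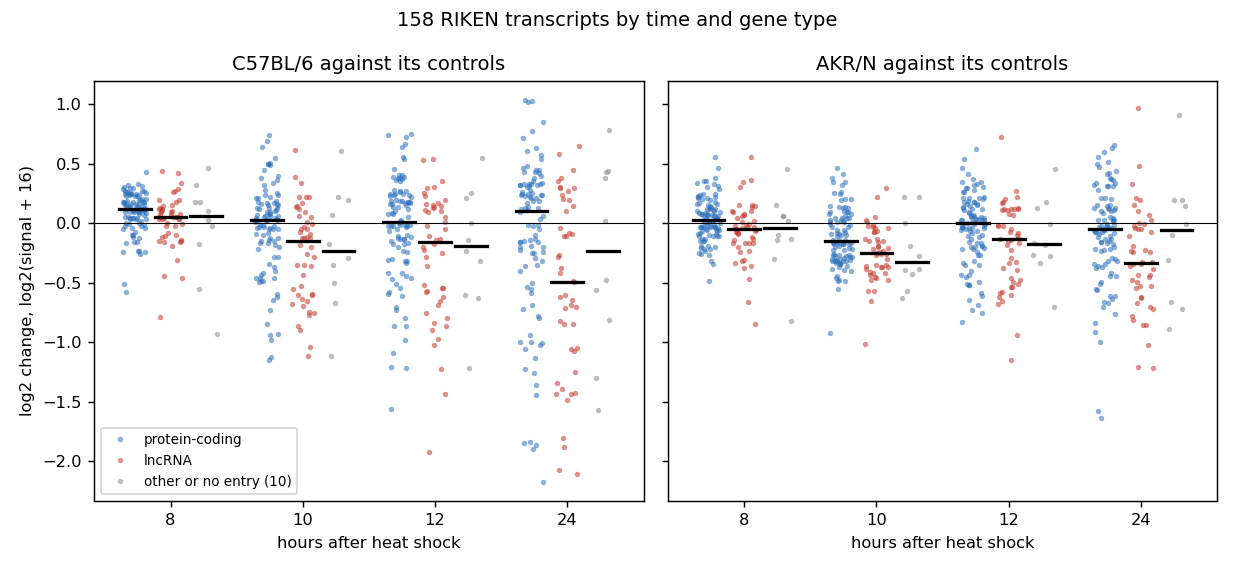
Change from control on the log2(signal + 16) scale for each of the 158 members (points) at 8, 10, 12 and 24 h after heat shock, in C57BL/6 (left) and AKR/N (right); blue is protein-coding, red lncRNA, grey other types or no RefSeq entry, and black bars are medians. In C57BL/6 the spread widens with time, and at 24 h the median of the lncRNA members is -0.49 and that of the protein-coding members 0.10.

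In AKR/N fewer members were called at each time from 10 h on, and most of those called were lower. The share of all genes called in AKR/N at these times also dropped when any 1 array of the compared groups was left out. At 24 h, 51 of 158 were called (32.3%), 41 lower and 10 higher, against 23.4% of all genes (11.1% lower, 12.3% higher) and 33.0% of other abundant genes (23.4% lower, 9.62% higher). The count was 17 without AKR/N 24 h replicate 2 and 32 without control replicate 1. Without control replicate 2, the array of higher Hspa1b, it was 36.

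The largest fall in AKR/N was that of 1700037H04Rik, a protein-coding gene on chromosome 2. Its AKR/N signals were 1835 and 1811 in controls, 1681 and 1705 at 8 h, 1881 and 1458 at 10 h, 1320 and 1212 at 12 h, and 625 and 528 at 24 h. Controls and the groups of 8 and 10 h were close together, and the 24 h arrays lay below all others. The change at 24 h was -1.64 ± 0.17 (SE; limma adjusted p = 0.000161), and it was -0.99 as the mean over its 3 probe sets. In C57BL/6 the gene's signals were 1833 and 1900 in controls and 750 and 793 at 24 h, a change of -1.26 ± 0.17.

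Further members fell in both AKR/N and C57BL/6. The lncRNA 1700001G11Rik had AKR/N signals of 654 and 769 in controls, 734 and 680 at 8 h, 512 and 438 at 10 h, 434 and 455 at 12 h, and 346 and 256 at 24 h, and all arrays from 10 h on were below both controls. Its change at 24 h was -1.21 ± 0.15 (limma adjusted p = 0.000305), and in C57BL/6 -1.39 ± 0.15. The lncRNA 1700051A21Rik changed from 975 and 803 to 455 and 400, by -1.02 ± 0.16. The protein-coding 1700010B08Rik changed from 1898 and 1882 to 972 and 900, by -1.0 ± 0.14. Heated and control arrays of these genes did not overlap at 24 h.

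Other AKR/N falls depended on single arrays. The protein-coding 1700003E16Rik had AKR/N control signals of 1127 and 643 and 24 h signals of 270 and 278, a change of -1.58 ± 0.37 (limma adjusted p = 0.009) that lost its call without control replicate 1 (-1.18) or 24 h replicate 2 (-1.60). The lncRNA 1700018L02Rik had control signals of 1461 and 667 and 24 h signals of 461 and 376, a change of -1.22 ± 0.36 that lost its call without control replicate 1 (-0.66), 24 h replicate 1 (-1.36) or 24 h replicate 2 (-1.07). In C57BL/6 the 24 h signals of 1700003E16Rik, 620 and 587, lay between its controls of 535 and 778.

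The lncRNA 4933438K21Rik had the largest rise in AKR/N. Its signals were 892 and 668 in AKR/N controls, 538 and 704 at 8 h, 873 and 695 at 10 h, 813 and 868 at 12 h, and 1412 and 1647 at 24 h. The earlier groups overlapped with the controls, and the 24 h arrays stood above all of them. Its change was 0.97 ± 0.25 (limma adjusted p = 0.0139), which lost the call without 24 h replicate 2 (0.86) or control replicate 2 (0.76).

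The other AKR/N rises were also open to single arrays or probe sets. The transcribed pseudogene 4930448K20Rik changed from 507 and 583 to 979 and 1095, by 0.91 ± 0.17, but the mean of all its probe sets changed by 0.26 with no call, and its 3 further probe sets changed by 0.69, 0.79 and -0.77. The protein-coding 4430402I18Rik, with the RefSeq synonym Spata6l, changed by 0.65 ± 0.16 and lost its call without 24 h replicate 1 (0.57) or control replicate 1 (0.48). The protein-coding 1700017N19Rik (0.63 ± 0.16) lost it without 24 h replicate 2 (0.54) or control replicate 1 (0.58), and 4921539E11Rik (0.56 ± 0.14) without the same arrays (0.51 and 0.49). The protein-coding 1700001K19Rik (0.60 ± 0.14) lost it without 24 h replicate 1 (0.56), 24 h replicate 2 (0.64) or control replicate 1 (0.42). For 4921539E11Rik the AKR/N signals were 1236 and 1359 in controls, 1177 and 1022 at 8 h, 1345 and 1496 at 10 h, 1156 and 1366 at 12 h, and 1847 and 1978 at 24 h, so the 8 h arrays were below both controls, those of 10 and 12 h overlapped with them and those of 24 h were above.

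Against the earlier heated groups of AKR/N, 44 members were called at 24 h (27.8%), 30 lower and 14 higher, against 25.0% of all genes (11.0% lower, 14.0% higher) and 32.3% of other abundant genes (23.6% lower, 8.69% higher). Median centring gave 27 lower and 6 higher, and quantile normalization 26 lower and 19 higher. Leaving out AKR/N 24 h replicate 1 gave 24 calls and leaving out replicate 2 gave 8. Of the lncRNA members 12 were called lower and 3 higher, and of the protein-coding members 16 lower and 9 higher. For the protein-coding ones median centring gave 14 lower and 2 higher, and quantile normalization 14 and 14. Without 24 h replicate 2 those called lower numbered 2 lncRNAs and 5 protein-coding genes, and without replicate 1 the protein-coding ones numbered 10. Of the 41 members lower at 24 h against control, 27 were also lower here (65.9%), and 8 of the 10 higher were also higher. The same shares were 66.8% and 70.4% in all genes and 75.1% and 58.9% in other abundant genes.

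The falls of 1700037H04Rik (-1.38 ± 0.14; limma adjusted p = 8.36e-05), 1700001G11Rik (-0.80 ± 0.12) and the lncRNA 1110020A21Rik (-0.71 ± 0.10) kept their calls whichever array was left out. The mean over its 3 probe sets gave -0.88 for 1700037H04Rik. The signals of 1110020A21Rik were 535 to 703 on the 6 earlier heated AKR/N arrays and 384 and 359 at 24 h, while in C57BL/6 they were 461 to 566 on those arrays and 461 and 416 at 24 h. The fall of 1700003E16Rik (-1.26 ± 0.30) lost its call without 24 h replicate 1 (-1.24) or replicate 2 (-1.28). Among the rises, 4933438K21Rik (1.03 ± 0.20), 4930448K20Rik (0.70 ± 0.14) and 4921539E11Rik (0.61 ± 0.11) lost theirs without 24 h replicate 2 (0.92, 0.62 and 0.56). The protein-coding 4932414N04Rik (0.61 ± 0.15) lost it without either 24 h array (0.53 and 0.69). For 4930448K20Rik the mean of all probe sets gave 0.23 with no call.

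Before 24 h few AKR/N members passed the test. At 8 h limma called 0, against 0.0381% of all genes (0.0127% lower, 0.0254% higher) and 0.0408% of other abundant genes, all higher. An unadjusted limma p under 0.05 was found for 17 of 158 members, 1568 of all 15762 genes and 195 of the 2452 other abundant genes. Both 8 h arrays were above both controls for 35 members (22.2%) and below both for 43 (27.2%), compared with 18.4% and 27.4% of all genes and 29.5% and 24.9% of other abundant genes. At 10 h 4 were called (2.53%), all lower, against 2.63% of all genes (1.19% lower, 1.44% higher) and 4.08% of other abundant genes (2.69% lower, 1.39% higher). Both 10 h arrays were above both controls for 11 members (6.96%) and below both for 73 (46.2%). The same shares were 19.7% and 24.7% of all genes and 22.3% and 34.7% of other abundant genes. The median change at 10 h was -0.18 in members, -0.03 in all genes and -0.06 in other abundant genes. The largest of the 4 called falls was that of the protein-coding 4930415O20Rik, with signals of 1431 and 1672 in controls and 828 and 786 at 10 h, a change of -0.93 ± 0.15 (limma adjusted p = 0.0121). The lncRNA 4930403D09Rik (-0.57 ± 0.12) and the protein-coding 1700019A02Rik (-0.55 ± 0.14) followed, and the remaining one was 4933432K03Rik. Without any one of the AKR/N 10 h and control arrays these calls were lost, at -0.81 to -1.04 in 4930415O20Rik, -0.47 to -0.67 in 4930403D09Rik and -0.48 to -0.63 in 1700019A02Rik. None of the 4 was called without AKR/N 10 h replicate 1, control replicate 1 or control replicate 2, 1 was called without 10 h replicate 2, and 2 were called without either array of AKR/N 8 h, C57BL/6 control, 8, 10 or 24 h.

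At 12 h 22 AKR/N members were called (13.9%), 17 lower and 5 higher, against 7.0% of all genes (3.2% lower, 3.8% higher) and 8.85% of other abundant genes (5.46% lower, 3.38% higher). Median centring gave 8 lower and 1 higher. The count was 0 without AKR/N 12 h replicate 1, 4 without control replicate 1 and 7 without control replicate 2. The named changes were -1.15 ± 0.26 in 4931408D14Rik, -0.94 ± 0.22 in 4921525O09Rik, -0.83 ± 0.18 in 4932414N04Rik, 0.73 ± 0.18 in the lncRNA 4930584F24Rik, 0.63 ± 0.16 in 4430402I18Rik and 0.46 ± 0.11 in the protein-coding 2810408A11Rik. Without 12 h replicate 1 they lost their calls at -0.75, -0.72, -0.49, 0.75, 0.47 and 0.40, and without control replicate 1 at -0.85, -0.76, -0.74, 0.70, 0.45 and 0.49. Without control replicate 2, 4932414N04Rik (-0.92), 4930584F24Rik (0.75) and 2810408A11Rik (0.43) lost theirs, and 4930584F24Rik also did without 12 h replicate 2 (0.71). Median centring ended the calls of 4430402I18Rik (0.62) and 2810408A11Rik (0.46), and the mean over probe sets that of 2810408A11Rik (0.32). Over the 4 times 58 members were called at least once in AKR/N (36.7%), none of them in both directions, against 27.1% of all genes and 37.1% of other abundant genes, of which 0.171% and 0.0816% were called in both directions.

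At 24 h no member was called in opposite directions in C57BL/6 and AKR/N. Called lower in both were 35 members, and called higher in both were 1700017N19Rik, 1700034I23Rik, 1700061F12Rik, 4430402I18Rik, 4921539E11Rik and 4930505A04Rik, of which only 1700061F12Rik is a lncRNA. Members called in C57BL/6 alone numbered 43 and in AKR/N alone 10, and 64 were called in neither. The shared calls made up 48.8% of the C57BL/6 calls and 80.4% of those in AKR/N, close to the 47.0% and 80.2% of other abundant genes and beside 44.3% and 72.0% of all genes. Lower in both were 22.2% of members, 19.0% of other abundant genes and 7.49% of all genes, and higher in both were 3.8%, 7.54% and 9.36%. Opposite calls made up 0.163% of other abundant genes and 0.197% of all genes. Across the 158 members the changes in C57BL/6 and AKR/N had a Pearson r of 0.68 and a Spearman rho of 0.73, given as a description, since members are not independent.

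**Figure D4:**
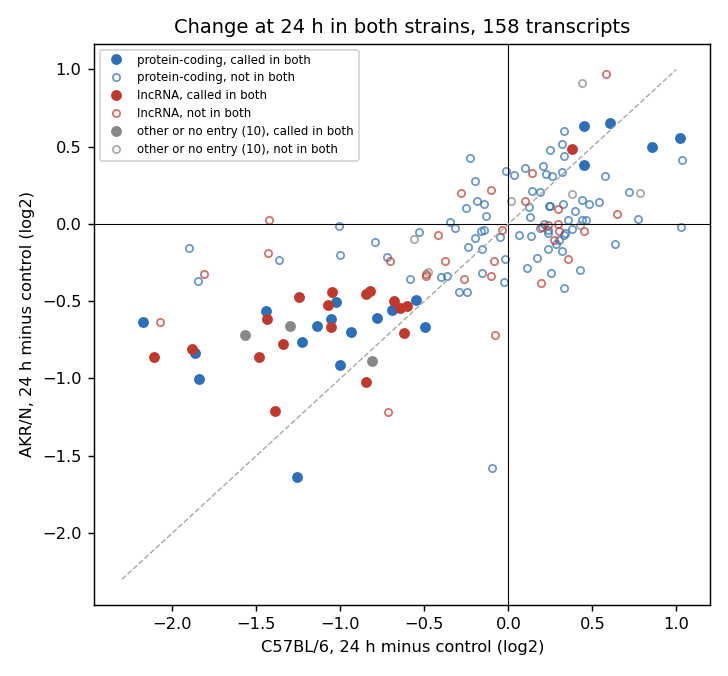
Change at 24 h from control in AKR/N (vertical, log2 scale) against C57BL/6 (horizontal, log2 scale) for the 158 members; filled points are called in both strains, open points are not, colours give the RefSeq gene type, and the dashed line marks equal change. The 35 members called lower in both lie at lower left and the 6 called higher in both at upper right.

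A test of the strain difference itself called 11 members for the change from control to 24 h (6.96%), against 1.76% of all genes (0.818% below and 0.939% above 0) and 3.43% of other abundant genes (1.43% and 2.0%). In 10 of them the change in AKR/N was above that in C57BL/6, and in 4930571K23Rik it was below. Leaving out any 1 array of the compared groups lowered the share of all genes called as well as the count of members. Most of the count depended on single arrays: it was 0 without AKR/N 24 h replicate 1, 4 without replicate 2, 1 without AKR/N control replicate 1 and 4 without replicate 2. It was 2 without C57BL/6 24 h replicate 1, 3 without replicate 2, 2 without either C57BL/6 control, and 7 without either AKR/N 8 h array.

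Of these, 1700006A11Rik differed most: its AKR/N signals were 785 and 584 in controls and 586 and 629 at 24 h, within the range of the controls, while it fell in C57BL/6. The difference was 1.74 ± 0.31 (limma adjusted p = 0.0223), and it lost its call without any one of the 8 arrays of those groups, at 1.54 to 1.95. For 1700029P11Rik the AKR/N signals were 893 and 898 in controls and 653 and 499 at 24 h, a smaller fall than in C57BL/6. The difference was 1.54 ± 0.21 (adjusted p = 0.00917) and was lost only without AKR/N 24 h replicate 1 (1.35).

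The lncRNA 1700029M20Rik had C57BL/6 signals of 1303 and 1537 in controls and 381 and 404 at 24 h, and AKR/N signals of 1473 and 1304 in controls and 1069 and 1142 at 24 h. Its difference was 1.49 ± 0.27, not called without any one of the 8 arrays (1.37 to 1.60). For 1700102P08Rik the C57BL/6 signals were 1034 and 1082 in controls and 256 and 312 at 24 h, and those of AKR/N 1015 and 954 in controls and 763 and 756 at 24 h. The difference of 1.48 ± 0.24 lost its call without C57BL/6 24 h replicate 1 (1.34), C57BL/6 control replicate 1 (1.51) or 2 (1.45), AKR/N 24 h replicate 1 (1.47) or AKR/N control replicate 1 (1.52). The lncRNA 1700020N01Rik had C57BL/6 signals of 1070 and 1178 in controls and 336 and 493 at 24 h, and AKR/N signals of 670 and 721 in controls and 713 and 705 at 24 h. Its difference of 1.46 ± 0.28 kept its call without C57BL/6 24 h replicate 2 and lost it without any other of the 8 arrays, at 1.19 to 1.52, and with median centring (1.59).

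Heated arrays alone gave 4 calls for a strain difference in the change from 8, 10 and 12 h to 24 h (2.53%), all above 0, against 0.914% of all genes (0.431% below and 0.482% above 0) and 1.79% of other abundant genes (0.571% and 1.22%). The clearest was the lncRNA 1700110I01Rik, with C57BL/6 signals of 870 and 888 at 8 h, 471 and 491 at 10 h, 461 and 479 at 12 h, and 277 and 271 at 24 h. Its AKR/N signals were 1046 and 869 at 8 h, 660 and 802 at 10 h, 633 and 668 at 12 h, and 884 and 829 at 24 h. In C57BL/6 the lowest arrays were those of 24 h, whereas in AKR/N those of 24 h were above those of 10 and 12 h. The difference was 1.20 ± 0.14 (limma adjusted p = 0.00578), and it was not called without AKR/N 24 h replicate 1 (1.16). The count of 4 was 0 without that array, 1 without either array of AKR/N 8 h, C57BL/6 24 h or C57BL/6 control, 1 without AKR/N 24 h replicate 2, AKR/N 10 h replicate 1 or C57BL/6 8 h replicate 2, and 2 without AKR/N 12 h replicate 1, C57BL/6 10 h replicate 1 or C57BL/6 8 h replicate 1. It was 8 without AKR/N 10 h replicate 2 and 7 without AKR/N 12 h replicate 2.

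Levels after heat differed between AKR/N and C57BL/6 in many members. The 4 genes left out by the rule all had lower means in AKR/N than in C57BL/6 controls, so counts of strain differences here are descriptions. Over the 4 heated times 75 members were called (47.5%), 42 lower and 33 higher in AKR/N, against 26.2% of all genes (12.7% lower, 13.5% higher) and 40.8% of other abundant genes (22.0% lower, 18.8% higher). Higher in AKR/N were 18 of 48 lncRNA members and 12 of 100 protein-coding ones, and lower were 9 and 32.

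The widest difference was in the lncRNA 1700097N02Rik, with C57BL/6 signals of 377 to 717 and AKR/N signals of 1891 to 2647 on the heated arrays. The strains did not overlap, and the difference was 2.16 ± 0.08 (limma adjusted p = 1.72e-10). Its probe set has a suffix for shared probes, and its other probe sets gave 2.62 and 0.78. The lncRNA 1700006J14Rik ran from 422 to 1128 in C57BL/6 and from 1296 to 2354 in AKR/N, a difference of 1.26 ± 0.06. The other named differences were 1.04 ± 0.11 in 1700006A11Rik, 0.80 ± 0.12 in 4933438K21Rik, -0.79 ± 0.12 in 4930579F01Rik, -0.79 ± 0.10 in 1700029I15Rik, -0.72 ± 0.10 in 2900092C05Rik and -0.71 ± 0.07 in the lncRNA 4930452G13Rik. All of these kept their calls in every alternative, and sequence differences between strains under the probes were not tested. Another probe set of 1700029I15Rik gave -0.35.

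Some members hardly moved. The largest change from control over the 8 comparisons of time and strain was 0.16 in 4930578I06Rik, 0.18 in 1700094D03Rik and 0.19 in 1700028P14Rik, all protein-coding. The signals of 4930578I06Rik were between 949 and 1238 on the 10 C57BL/6 arrays and between 820 and 1050 on the 10 AKR/N arrays.

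Named testis gene families gave a comparison outside the RIKEN genes. Of 68 tested genes with Spata, Tex, Tekt or Odf symbols, 20 were called higher and 9 lower at 24 h in C57BL/6. In AKR/N 8 of these genes were called higher and 7 lower. The medians of the 68 genes were 0.23 in C57BL/6 and 0.05 in AKR/N, beside -0.09 and -0.09 in the RIKEN members. In C57BL/6, 29.4% of these family genes were higher and 13.2% lower, against 21.4% and 16.6% of all genes. In AKR/N the shares were 11.8% and 10.3%, close to the 12.3% and 11.1% of all genes.

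Markers of several testis cell types were also called at 24 h. Of all genes, 21.4% were called higher and 16.6% lower in C57BL/6, and 12.3% and 11.1% in AKR/N. At 24 h, 8 of 16 markers of pachytene spermatocytes were called lower and 1 higher in C57BL/6, and 7 lower and 1 higher in AKR/N. Their summed signal was 37320 to 38200 in C57BL/6 controls and 33280 to 33990 at 24 h, and 38630 to 39340 and 33880 to 34190 in AKR/N. Of 16 round spermatid markers, 8 were higher and 3 lower in C57BL/6, and 2 higher and 1 lower in AKR/N, with sums of 35690 to 35900 in controls and 43280 to 45020 at 24 h in C57BL/6 and 30120 to 33710 and 33320 to 33340 in AKR/N. Of 15 elongating spermatid markers, 4 were called higher in C57BL/6 and 1 in AKR/N, with none lower.

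Some markers of somatic cells and of spermatogonia were called higher. Of 10 Sertoli cell markers, 6 were called higher in C57BL/6 and 5 in AKR/N with none lower, and their sum was 6974 to 7161 in C57BL/6 controls and 13110 to 13840 at 24 h, and 7798 to 8407 and 12330 to 12720 in AKR/N. Macrophage and leukocyte markers had 4 and 3 of 8 higher, spermatogonial markers 2 and 3 of 9, endothelial markers 3 and 0 of 6 and myoid markers 1 and 2 of 6, with none lower. For C57BL/6, 22.2% of spermatogonial and 16.7% of myoid markers were higher, beside 21.4% of all genes. In AKR/N both shares were 33.3%, beside 12.3% of all genes. Leydig cell markers had 3 of 6 higher and 2 lower in C57BL/6 and 0 higher and 2 lower in AKR/N. Of the 2 epididymal markers tested 1 was lower in C57BL/6. The actin ratio was 2.14 and 2.46 in C57BL/6 controls and 2.84 and 2.58 at 24 h, and 2.92 and 2.39 in AKR/N controls and 2.14 and 2.17 at 24 h. The part of these shifts in the members' changes was not tested.

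Other probe sets of the same genes mostly gave the same direction. At 24 h in C57BL/6, 16 called members had 27 further probe sets above the filter, and 25 of these changed in the direction of the call. In AKR/N 12 called members had 20, and 18 did so.

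Promoter sequences were read for 4921539E11Rik, named for its rise in both strains, and, chosen after their values were seen, for the members with the largest fall and rise in C57BL/6 and in AKR/N, to show the starts of genes that moved in opposite directions. Each runs 5′ to 3′ on the gene's strand over the 250 bases before the RefSeq start (GRCm38.p6), and capitals mark TGACG or its complement CGTCA, the core of the site bound by CREM and CREB. The windows are chr15:81980290-81980539 (plus strand) for 1700029P11Rik, chr2:131160082-131160331 (minus) for 1700037H04Rik, chr6:50596591-50596840 (minus) for 4921507P07Rik, chr4:147068437-147068686 (minus) for 4933438K21Rik and chr4:103290864-103291113 (minus) for 4921539E11Rik.
1700029P11Rik: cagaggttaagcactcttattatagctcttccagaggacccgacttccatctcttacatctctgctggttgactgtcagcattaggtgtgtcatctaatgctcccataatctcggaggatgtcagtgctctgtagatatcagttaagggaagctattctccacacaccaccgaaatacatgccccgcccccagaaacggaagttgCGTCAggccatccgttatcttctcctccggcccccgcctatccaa
1700037H04Rik: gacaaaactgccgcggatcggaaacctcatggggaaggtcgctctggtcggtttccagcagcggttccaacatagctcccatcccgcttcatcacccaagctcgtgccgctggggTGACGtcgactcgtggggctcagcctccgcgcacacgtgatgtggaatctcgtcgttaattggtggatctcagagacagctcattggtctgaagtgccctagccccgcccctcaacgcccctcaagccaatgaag
4921507P07Rik: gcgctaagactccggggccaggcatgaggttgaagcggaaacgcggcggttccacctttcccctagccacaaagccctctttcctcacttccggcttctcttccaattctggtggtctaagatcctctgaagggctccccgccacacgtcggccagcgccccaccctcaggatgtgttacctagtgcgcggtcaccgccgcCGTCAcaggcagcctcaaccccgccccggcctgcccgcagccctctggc
4933438K21Rik: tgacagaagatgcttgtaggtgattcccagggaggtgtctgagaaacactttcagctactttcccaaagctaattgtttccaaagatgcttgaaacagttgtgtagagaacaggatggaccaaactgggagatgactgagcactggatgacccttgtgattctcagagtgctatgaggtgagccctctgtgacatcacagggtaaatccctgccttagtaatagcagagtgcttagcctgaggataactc
4921539E11Rik: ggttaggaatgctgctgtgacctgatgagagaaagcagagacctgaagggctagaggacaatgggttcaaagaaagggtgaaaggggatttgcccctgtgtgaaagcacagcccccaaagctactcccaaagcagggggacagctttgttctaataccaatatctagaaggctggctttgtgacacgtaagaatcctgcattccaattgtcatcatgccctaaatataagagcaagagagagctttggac

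These letters stood once in each of 3 of these windows, starting 45 bases before the start in 1700029P11Rik, which fell, 135 bases before it in 1700037H04Rik, which fell, and 49 bases before it in 4921507P07Rik, which rose. The windows of 4933438K21Rik and 4921539E11Rik do not hold these letters. They also hold 0 and 1 CG dinucleotides, against 9, 19 and 19 in the other 3.

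RefSeq promoter entries of 300 bases, 250 before and 50 after the start, were found for 128 members and searched on both strands. TGACG stood in 25.8% of members, 31.8% of tested genes and 38.5% of other abundant genes. The full site TGACGTCA, which holds TGACG, stood in 2.34% of members (3 of 128), 3.13% of tested genes and 4.51% of other abundant genes. In the same order, CCAAT was found in 45.3%, 42.1% and 44.1%, TATAAA in 10.2%, 10.2% and 9.52%, and GTTGCC in 15.6%, 15.3% and 19.2%. The heat-shock element, written as GAA, NN, TTC, NN and GAA in a row, was found in 0.781%, 0.644% and 0.785%. TGACG stood in 5 of 38 lncRNA members (13.2%) and 28 of 90 protein-coding ones (31.1%), and in 25% of members lower and 23.8% of members higher at 24 h in C57BL/6. The median number of CG dinucleotides was 7 in members and 18 in tested genes, and the median GC content 52.3% and 59.3%. A match of letters does not show that a factor binds there.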

How the data were processed

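The 20 arrays were grouped by the strain and time in the labels. The authors deposited one table of probe-set intensity values on a linear scale; trimmed by 2% at each end, its mean was 125.001 on every array. The sources used here do not name the software or summary method. Of 45101 probe sets, 64 were controls, and 34945 had 1 gene in the chip annotation, 932 several and 9160 none; only those with 1 gene were used. One probe set, that of highest mean, was kept per gene. Signals were taken as log2(signal + 16), so changes of low genes are understated. Genes were tested when the highest group mean reached the 40th percentile of the means of all probe sets (signal 17.5).

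limma 3.58.1 (R 4.3.3) was fitted to all 10 groups together, with contrasts against the control of the same strain, between 24 h and the mean of 8, 10 and 12 h, and between strains; p-values were adjusted by Benjamini-Hochberg over 15762 genes. The script was tested on simulated data. Members were matched to RefSeq by Entrez ID (155 of 158, all with the same symbol). The members, gene lists and tests were chosen with earlier results of these data known, so counts over lists carry no set test. Named were, per strain, up to 6 rises and 6 falls at 24 h with arrays that do not overlap, up to 4 per direction against the earlier heated groups, up to 3 per direction at the other times, up to 5 per strain difference of change, up to 4 per direction between strains after heat, the 5 members of highest level, 3 of smallest change and 3 on either side of the limit. Alternatives were the pseudocount, filter, centring, quantile normalization, array weights, the mean of all probe sets, other member levels, members chosen on other arrays, the replicate number as a block, and leaving out each array. The number of arrays limits the precision. Replicate numbers did not pair samples: over the 45 combinations of groups, same-numbered deviations had a median correlation of -0.01 (lowest -0.28, highest 0.30), and 4 combinations exceeded 0.1.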

Additional observations from a re-analysis of the deposited data

Results flagged for a closer look

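Members whose change differed between C57BL/6 and AKR/N in a test of the difference itself are listed with the difference, AKR/N minus C57BL/6, on the log2 scale. For the change from control to 24 h these were 1700006A11Rik (1.74), 1700029P11Rik (1.54), 1700029M20Rik (1.49), 1700102P08Rik (1.48) and 1700020N01Rik (1.46). For the change from 8, 10 and 12 h to 24 h, they were 1700110I01Rik (1.20), 1700029M20Rik (1.09), 1700102P08Rik (1.03) and 1700029P11Rik (0.81). Each of these members was lower at 24 h than in controls in C57BL/6. Every one of the 9 values lost its call when 1 or more single arrays were left out, and each stayed above 0. The late difference of 1700029M20Rik also lost its call with the mean of all probe sets (0.95), median centring (1.16), a pseudocount of 1 (1.12) or the replicate block (1.09). That of 1700029P11Rik did with median centring (0.88), no filter (0.81), a pseudocount of 1 (0.84) or the block (0.81), and that of 1700102P08Rik with median centring (1.10). Median centring also ended the call of 1700020N01Rik for the change from control (1.59). Without AKR/N 24 h replicate 1, the late difference of 1700110I01Rik was at 1.16. The difference of 1700029P11Rik in the change from control was at 1.35 without that array. The late difference of 1700029M20Rik was at 1.14 and that of 1700102P08Rik at 1.02 without the same array, and that of 1700029P11Rik at 0.62. The causes were not tested.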

How the results depend on the processing

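Values are percent of members called, except where all genes are named. Array weights or a pseudocount of 64 gave 0.633% at 8 h in C57BL/6, and the latter 0.633% in AKR/N, in place of 0. In C57BL/6 these settings called 0.311% and 0.115% of all genes, against 0.0888%. The pseudocount of 64 called 0.121% of all genes in AKR/N, against 0.0381%. At 10 h in AKR/N (2.53%) array weights and median centring gave 0.633%, no filter, a pseudocount of 1 and the replicate block 1.27% each, a pseudocount of 64 10.1%, and members of at least 1000 in controls 4.49%. For all genes (2.63%) array weights gave 0.66% and median centring 1.28%. No filter gave 1.69%, a pseudocount of 1 2.05%, the block 1.94% and a pseudocount of 64 4.97% of all genes. At 12 h in AKR/N (13.9%) array weights gave 8.23% and median centring 5.70%. For all genes (7.0%) these gave 4.0% and 4.2%. The strain difference at 24 h (6.96%) was 14.6% with array weights, 3.80% with median centring and 15.8% with a pseudocount of 64. For all genes (1.76%) it was 5.08%, 0.612% and 4.68% in the same order. The strain difference in heated arrays (2.53%) was 5.06% with array weights, 0.633% with median centring, 1.27% with a pseudocount of 1, 8.23% with 64, 4.43% with quantile normalization and 1.27% with the replicate block. For all genes (0.914%) it was 2.44%, 0.433%, 0.572%, 3.1%, 1.48% and 0.565% in the same order. In the other comparisons the block stayed within 1.5 times, and as the numbers did not pair the samples it is not read further. The cause of these differences was not tested. No change of a named member turned its sign in any alternative, whereas the balance of protein-coding members at 24 h in C57BL/6 turned from 26 lower and 21 higher to 24 and 25 with quantile normalization.

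Leaving out single arrays gave 3.80% to 26.6% at 10 h, 17.1% to 32.9% at 12 h and 39.2% to 55.1% at 24 h in C57BL/6, 0.0% to 3.17%, 0.0% to 14.6% and 10.8% to 32.9% in AKR/N, and 0.0% at 8 h in both. Against the earlier heated groups it gave 22.2% to 39.9% in C57BL/6 and 5.06% to 29.8% in AKR/N, between strains after heat 41.8% to 48.7%, and 0.0% to 8.23% and 0.0% to 5.06% for the strain differences of change. Called lower at 24 h were 45.8% to 54.2% of lncRNA and 21% to 26% of protein-coding members in C57BL/6, and 12.5% to 41.7% and 7.0% to 19.0% in AKR/N. Against the earlier heated groups these were 33.3% to 54.2%, 13% to 24%, 4.17% to 29.2% and 5.0% to 16%. Members chosen on the other strain's controls gave 84 of 156 called at 24 h in C57BL/6 and 48 of 156 in AKR/N. Of 2184 alternative values of named members, 185 lost the call and 1999 kept direction and call.

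With 2 arrays a group, a group left with 1 array is assumed to vary like the others. At 10, 12 and 24 h in both strains, leaving out 1 array of a compared group also lowered the share of all genes called. The same held for the 24 h arrays in the comparisons with earlier heated groups and in both strain differences of change. Median centring turned the median of all genes from 0.08 to -0.05 at 24 h in C57BL/6, from 0.06 to -0.07 at 12 h and from -0.05 to 0.05 at 8 h in AKR/N.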
